A study of Mus musculus with 4 samples.

Results

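The nuclear genes of the mitochondrial respiratory chain and ATP synthase were compared between the livers of control mice and of hepatic reductase null mice. Members were the probe sets of the Affymetrix MG_U74Av2 array that the platform annotation assigns to a single gene symbol, where that symbol begins with Nduf (complex I), with Sdh followed by a, b, c or d (complex II), with Uqcr (complex III), with Cox4 to Cox8 (complex IV) or with Atp5 (ATP synthase), or is Cyc1 or Cycs. The rule found 103 probe sets for 75 genes, out of 12422 probe sets that are not manufacturer's controls and out of 8251 genes with a single symbol. By symbol these were 29 genes of complex I, 4 of complex II, 8 of complex III, Cycs, 14 of complex IV, 14 of ATP synthase and 5 whose products are assembly factors and no subunits (Ndufaf1, Ndufaf4, Sdhaf1, Sdhaf2 and Cox7a2l). A further 10 probe sets that the annotation pairs with one of these genes and with another gene or pseudogene were not used.

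The 4 arrays were 2 of control liver (replicates 7 and 8) and 2 of null liver (replicates 7 and 8). By the name of the line the reductase should be Por (NADPH-cytochrome P450 oxidoreductase), the microsomal electron donor of cytochrome P450 enzymes, and the known line of this name lacks it in hepatocytes, through Cre driven by the albumin promoter. The labels give no strain, sex, age, promoter or genotype of the controls, and the level of Por was not analysed here. According to the labels, each experiment used RNA pooled from 3 animals of a genotype, but control titles name a single mouse, so the p-values measure the spread between 2 arrays a group, which may or may not hold the spread between animals. Values are probe set signals on a linear scale, scaled by the authors to the total fluorescence of each array. The median signal of an array lay between 26.2 and 28.4, and between 24.7% and 25.6% of its probe sets lay at or below 7.1, the floor used before taking log2. Null replicate 7 stood apart in pancreatic genes, which liver should lack. All 6 pancreatic acinar markers on the array were tested, none was at or below the floor on all arrays, and their summed signal was 2952 on that array and between 252.8 and 365.1 on the others. The part of this in the members' values was not tested.

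Complex I (NADH dehydrogenase) and complex II (succinate dehydrogenase) pass electrons to ubiquinone. Complex III passes them on to cytochrome c, and complex IV passes them to oxygen. The proton gradient built on the way drives ATP synthase. Liver is rich in mitochondria, and hepatocytes rely on this chain for the ATP that urea synthesis and gluconeogenesis consume. The chain is separate from the microsomal electron chain in which Por works. Most subunits are encoded in the nucleus, as are all genes described here, and the transcription factors NRF1, GABP and YY1 are known regulators of many of them.

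The promoters of 61 of the 75 genes were present in a RefSeq table of GRCm38.p6 (250 bases before to 50 bases after a transcription start, the first listed start of each gene). They were searched on both strands for GCGCANGCG (a core of the NRF1 site), CCGGAAG (a core of the GABP site) and AAGATGGCG (a core of the YY1 site), of which CCGGAAG and AAGATGGCG can share the letters AAG. GCGCANGCG was found in 15 of 61 member promoters (24.6%), against 8.83% of 17491 promoters of protein-coding genes and 6.47% of all 27025 promoters of this length. CCGGAAG was found in 17 (27.9%), against 11.9% and 9.12%. AAGATGGCG was found in 4 (6.56%), against 1.94% and 1.49%. At least 1 of the 3 was present in 31 of 61 member promoters (50.8%), against 20.3% of protein-coding and 15.3% of all promoters. By complex these were 10 of 26 promoters in complex I, all 3 in complex II, 3 of 4 in complex III, 3 of 10 in complex IV and 7 of 12 in ATP synthase. The median share of G and C was 59.0% in the member promoters and 56.3% in protein-coding promoters, so base composition differs too, and its part in the shares was not tested.

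The sequences below are shown for Ndufb3, Ndufa7, Ndufaf1 and Cycs, picked after the array results were known. They are 4 of the 6 members, out of 67 tested, with an unadjusted p under 0.05 in the limma test described below (738 of all 5510 genes). None of them passed after adjustment. Sequences are also shown for Sdhd, Cox6a1 and Atp5k, 3 of the 5 members that held both GCGCANGCG and CCGGAAG (8.20% of 61, against 1.74% of protein-coding promoters). The other members with both were Atp5l and Uqcr11. The sequences are written 5′ to 3′ on the strand of the gene, with matches in capitals, and a match on the other strand appears as its reverse complement (CTTCCGG for CCGGAAG, and CGCNTGCGC for GCGCANGCG). The windows were chr1:58586147-58586446 (plus strand) for Ndufb3, chr17:33824322-33824621 (plus strand, the first of 2 listed starts) for Ndufa7, chr2:119662785-119663084 (minus strand) for Ndufaf1, chr6:50566520-50566819 (minus strand) for Cycs, chr9:50603800-50604099 (minus strand) for Sdhd, chr5:115348909-115349208 (minus strand) for Cox6a1 and chr5:108434350-108434649 (minus strand) for Atp5k.
Ndufb3: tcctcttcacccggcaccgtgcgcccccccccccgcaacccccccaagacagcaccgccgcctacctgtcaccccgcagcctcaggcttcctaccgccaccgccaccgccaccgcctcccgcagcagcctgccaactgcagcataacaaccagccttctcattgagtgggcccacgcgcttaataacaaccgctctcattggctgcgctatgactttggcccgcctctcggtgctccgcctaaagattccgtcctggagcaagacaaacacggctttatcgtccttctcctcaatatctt
Ndufa7: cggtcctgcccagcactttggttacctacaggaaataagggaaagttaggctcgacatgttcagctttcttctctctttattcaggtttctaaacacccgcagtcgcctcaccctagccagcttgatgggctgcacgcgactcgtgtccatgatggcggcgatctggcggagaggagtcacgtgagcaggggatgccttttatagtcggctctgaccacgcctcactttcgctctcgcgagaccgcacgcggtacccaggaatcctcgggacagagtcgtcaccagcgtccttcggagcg
Ndufaf1: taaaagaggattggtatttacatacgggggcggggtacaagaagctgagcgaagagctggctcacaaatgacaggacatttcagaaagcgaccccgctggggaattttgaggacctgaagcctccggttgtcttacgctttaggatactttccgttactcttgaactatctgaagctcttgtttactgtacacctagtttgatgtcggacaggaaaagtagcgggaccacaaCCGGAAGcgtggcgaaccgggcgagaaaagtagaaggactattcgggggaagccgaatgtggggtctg
Cycs: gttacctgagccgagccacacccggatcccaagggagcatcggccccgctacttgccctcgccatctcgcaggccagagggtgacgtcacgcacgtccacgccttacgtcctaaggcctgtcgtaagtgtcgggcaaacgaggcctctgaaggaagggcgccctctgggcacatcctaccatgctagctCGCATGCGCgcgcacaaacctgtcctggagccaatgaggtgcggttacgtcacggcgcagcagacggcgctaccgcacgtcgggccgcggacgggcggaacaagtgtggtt
Sdhd: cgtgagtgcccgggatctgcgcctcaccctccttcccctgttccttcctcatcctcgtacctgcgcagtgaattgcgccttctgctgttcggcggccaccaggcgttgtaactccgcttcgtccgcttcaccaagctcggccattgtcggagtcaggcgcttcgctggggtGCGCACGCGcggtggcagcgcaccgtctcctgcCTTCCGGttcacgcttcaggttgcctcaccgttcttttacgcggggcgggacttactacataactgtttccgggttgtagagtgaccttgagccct
Cox6a1: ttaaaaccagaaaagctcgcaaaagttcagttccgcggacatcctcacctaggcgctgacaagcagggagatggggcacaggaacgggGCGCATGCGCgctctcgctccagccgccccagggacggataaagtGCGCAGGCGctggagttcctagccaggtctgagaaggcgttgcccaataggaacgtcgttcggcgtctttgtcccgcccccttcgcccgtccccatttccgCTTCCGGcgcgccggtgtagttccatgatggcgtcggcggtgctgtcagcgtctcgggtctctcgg
Atp5k: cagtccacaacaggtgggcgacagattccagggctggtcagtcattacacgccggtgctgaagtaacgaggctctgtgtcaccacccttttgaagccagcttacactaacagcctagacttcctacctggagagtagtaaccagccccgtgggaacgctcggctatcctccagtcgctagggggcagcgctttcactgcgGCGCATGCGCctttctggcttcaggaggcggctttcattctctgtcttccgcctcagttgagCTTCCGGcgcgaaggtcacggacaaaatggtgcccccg
None of the 3 motifs was in the windows of Ndufb3 and Ndufa7. Cycs had 1 match to GCGCANGCG, and Ndufaf1 had 1 to CCGGAAG. Sdhd had 1 match to each, Atp5k had 2 to GCGCANGCG that overlap and 1 to CCGGAAG, and Cox6a1 had 3 to GCGCANGCG, some overlapping, and 1 to CCGGAAG. A missing match says only that these letters are not in the window. Among members tested on the arrays, the median log2 change was -0.04 for the 29 with a match and 0.01 for the 25 without, which is a description over genes and no test.

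Respiratory chain and ATP synthase signals differed little between null and control liver. No member passed the test, and 56 of the 67 tested members (83.6%) differed by less than 1.2-fold, against 59.1% of all genes tested. Among probe sets with a mean signal above 400, a limit chosen after seeing the data, these were 41 of 42 members (97.6%) against 74.9% of genes. A probe set was tested if its mean log2 signal over the 4 arrays lay above that of a signal of 16.8, and a gene was represented by its brightest tested probe set. This kept 77 of the 103 member probe sets and 67 of the 75 genes, and left out Ndufa1, Ndufa12, Ndufc2, Cox5a, Cox6a2, Cox7a1, Cox8a and Atp5j2, whose signals reached no more than 29 on any array. The 3 dim members Atp5pb, Atp5g1 and Ndufs4 lay above this limit in the control group only, so their place among the tested genes rests on the group where they were higher. In limma, with p-values adjusted by Benjamini-Hochberg over all 7241 probe sets tested, 0 members were higher and 0 lower at an adjusted p under 0.05, while over all 5510 genes tested 0.309% were higher and 0.0907% lower. At an unadjusted p under 0.05, 3 of 67 members were higher and 3 lower (6.46% and 6.93% of all genes), and 1 of the 3 lower was Atp5pb. The null and control arrays did not overlap for 28 of 67 members (41.8%), a share near the 44.9% of all genes, and for 15 of the 42 bright ones (35.7%), against 56.5% of genes as bright. The median log2 change (null minus control) was -0.03 over the members, with 29 positive and 38 negative values, and -0.01 over all genes tested. Atp5pb, Atp5g1 and Ndufs4 are among the negative values and among the 28 members without overlap. In a bulk sample fewer cells of a type and less RNA per cell cannot be told apart.

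Since a p that misses a threshold does not show that levels are equal, the intervals of the changes were read as well. The 95% interval of limma lay wholly within a 1.5-fold change in either direction for 52 of 67 members (77.6%), against 32.3% of all genes tested. Brighter probe sets are measured more precisely, and the members are bright, with a median signal of 732 against 84.3 over all genes. Among probe sets with a mean signal above 400 the interval lay within 1.5-fold for 41 of 42 members (97.6%), against 78.5% of the 744 genes that bright. The median size of the log2 change, sign disregarded, was 0.06 for those members and 0.14 for those genes. The exception among the bright members was Ndufa7.

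**Figure D1:**
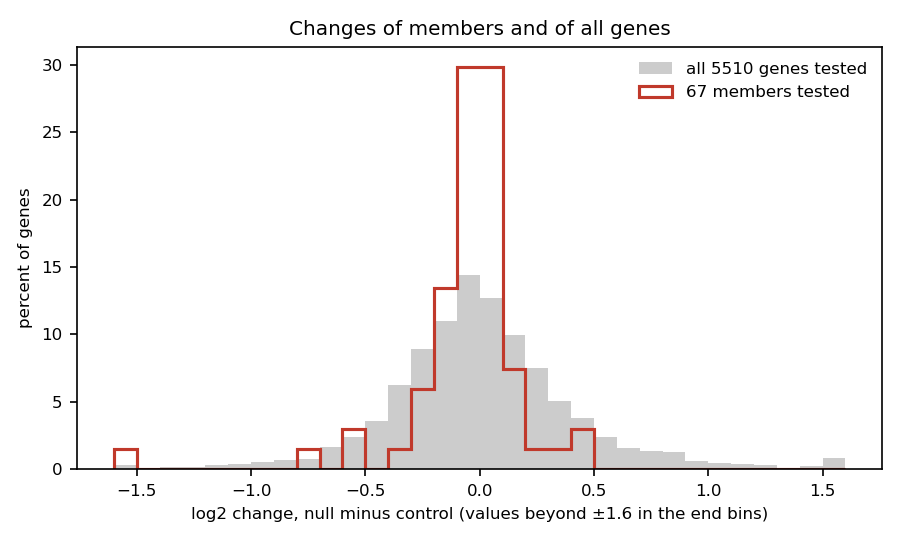
Share of genes (percent, vertical axis) by log2 change between null and control liver (horizontal axis, bins of 0.1, values beyond 1.6 in either direction in the end bins) for the 67 tested members (red outline) and all 5510 genes tested (grey). The members crowd around 0, with a median of -0.03 and a range of -1.57 to 0.50. The low end is the dim Atp5pb, which passed the filter through the control group only.

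Complex I, the largest of the complexes, held the member of smallest p on either side. Of its 29 genes 26 were tested, and 0 passed in either direction in limma. At an unadjusted p under 0.05 there were 1 higher and 1 lower, against 6.46% and 6.93% of all genes tested. The median log2 change was -0.04, with 10 positive and 16 negative values between -0.58 and 0.37. Among the negative ones is Ndufs4, which passed the filter through the control group only. Ndufb3, an accessory subunit of the membrane arm, had signals of 384.6 and 309.3 in control liver and 236.1 and 224.3 in null liver. Both null arrays lay below both control arrays, by 1.5-fold in the mean of the log values (log2 change -0.58 ± 0.15 SE, 95% interval -0.94 to -0.23), but the adjusted p was 0.183. Ndufa7, another accessory subunit, had signals of 1183.6 and 1257.0 in control liver and 1677.2 and 1481.7 in null liver. Both null arrays lay above both control arrays, 1.29-fold higher in the mean of the log values (log2 change 0.37 ± 0.10 SE, adjusted p = 0.197). Thus these members of a single complex lay on opposite sides, and neither passed over all probe sets.

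The other subunits of complex I lay closer to 0. Ndufa9 had signals of 775.7 and 783.5 in control and 695.0 and 692.0 in null liver, which do not overlap (log2 change -0.17 ± 0.09). Of the NADH-oxidising head, Ndufv1, Ndufs1 and Ndufv2 lay within 0.11 of 0 on the log2 scale on their brightest probe sets. Ndufv1, which carries the flavin that takes electrons from NADH, had signals of 1390.1 and 1460.5 in control and 1322.3 and 1372.9 in null liver, and its log2 change was -0.08 with a 95% interval of -0.28 to 0.12. Ndufs1, the largest iron-sulfur subunit, had a log2 change of -0.11 (interval -0.37 to 0.16), with control signals of 410.1 and 406.9 above null signals of 373.1 and 385.1. Ndufv2, its iron-sulfur neighbour in the head, was at -0.04 (interval -0.27 to 0.20), and a second probe set of it was at -0.22. Ndufa3 was at -0.08 on its brightest probe set and 0.36 on a dim one, and Ndufb2 at -0.03 and 0.08 on a pair of bright ones. The probe sets of Ndufa3 and Ndufb2 are of kinds that can also bind related transcripts. The 6 other members of the Ndufa group with signals of at least 262.7 were Ndufa2, Ndufa5, Ndufa6, Ndufa8, Ndufa13 and the acyl carrier protein Ndufab1. They lay between -0.20 (Ndufa6) and 0.06 (Ndufa2). Ndufa6 had signals of 405.9 and 417.5 in control and 397.5 and 321.1 in null liver, so most of its distance came from null replicate 8. In the Ndufb and Ndufc groups, which belong to the membrane arm as Ndufb3 does, the 9 members Ndufb5 to Ndufb11, Ndufb2 and Ndufc1 lay between -0.10 (Ndufb10) and 0.16 (Ndufb8). Ndufb8 had signals of 574.4 and 608.8 in control and 677.2 and 642.9 in null liver, and Ndufc1 had 539.2 and 497.0 against 569.9 and 562.6. Both were higher on both null arrays, with intervals that included 0, so none of these neighbours of Ndufb3 shared its distance from 0. Ndufs3, a subunit of the arm between the head and the membrane, was at -0.08, and Ndufv3 at 0.10. Ndufs4, at 14.7 to 19.6 on all arrays, was too dim for a narrow interval (-1.45 to 0.87).

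**Figure D2:**
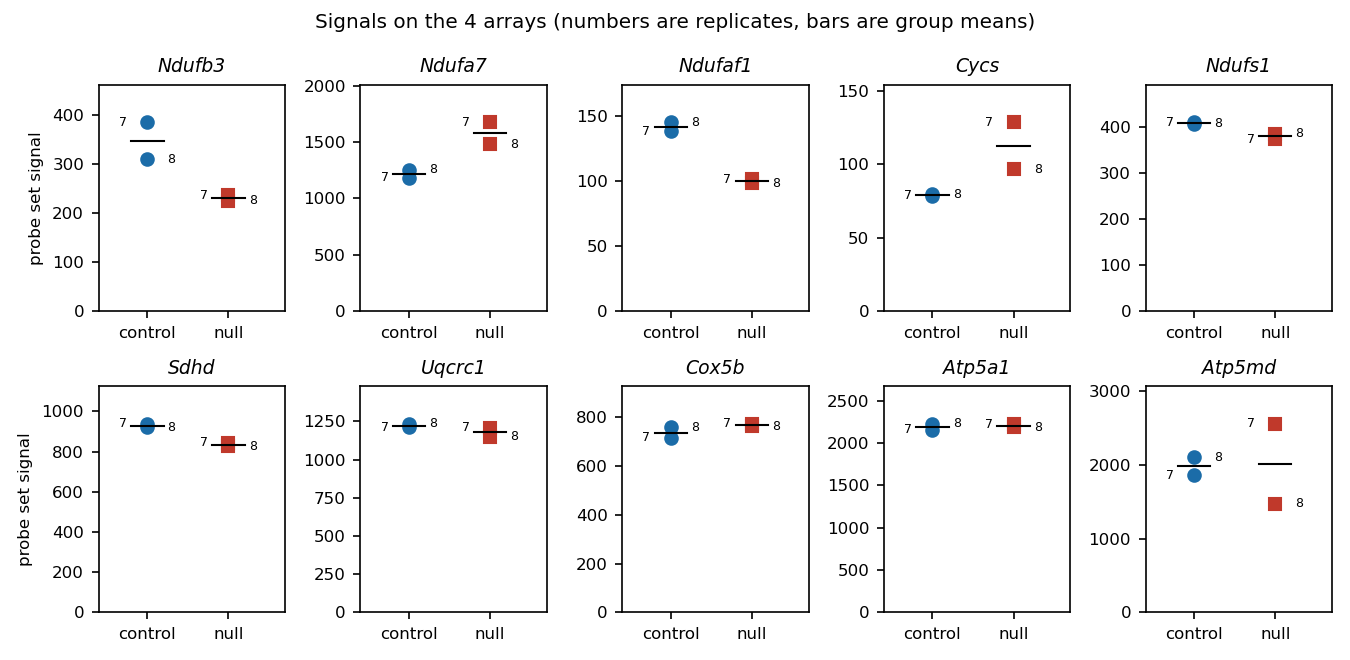
Probe set signals (vertical axes, linear from 0, a scale of its own for each gene) of 10 members on the 2 control (circles) and 2 null arrays (squares), with replicate numbers beside the points and group means as bars. Ndufb3 and Ndufaf1 were lower and Ndufa7 and Cycs higher on both null arrays. Ndufs1, Sdhd, Uqcrc1, Cox5b and Atp5a1 stayed within 1.2-fold, and the null arrays of Atp5md lay apart. Within that limit, Ndufs1, Sdhd and Uqcrc1 were also lower and Cox5b higher on both null arrays. Of all genes tested, 44.9% had no overlap in one direction or the other.

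All 4 subunits of complex II, the succinate dehydrogenase that the respiratory chain shares with the citric acid cycle, had slightly lower signals in null liver, and none passed. The median log2 change was -0.15, the lowest of the complexes, and the values ran from -0.16 to -0.06. Sdhd, a membrane anchor, had signals of 938.1 and 919.6 in control and 842.9 and 825.3 in null liver (log2 change -0.16 ± 0.09 SE, adjusted p = 0.538). Sdhc, the other anchor, was at 1001.9 and 1003.7 against 876.5 and 947.8 (log2 change -0.14). Sdha, the flavoprotein that oxidises succinate, was at 241.1 and 239.8 against 229.6 and 201.6 (log2 change -0.16). In these 3 genes both null arrays lay below both control arrays. The same held for 1323 of all 5510 genes tested and for 248 of the 744 with a signal above 400, a limit that Sdha did not reach. In one direction or the other, 44.9% of all genes and 56.5% of those above 400 had no overlap. Sdhb, the iron-sulfur subunit, was at 898.4 and 1013.1 against 930.7 and 900.0 (log2 change -0.06), so its groups overlapped. The 95% intervals of all 4 genes lay within 1.5-fold and included 0. The median depended on the scaling of the arrays and was -0.22 when the arrays were scaled to one median, which moved the median of all genes tested from -0.01 to -0.08.

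In complex III all 8 members were tested, and all 8 had an interval within 1.5-fold and a difference below 1.2-fold, as did the 4 of complex II. The median log2 change was -0.03, with 4 positive and 4 negative values from -0.18 to 0.10, and 0 members had an unadjusted p under 0.05. Uqcrc1 and Uqcrc2, the core proteins, had log2 changes of -0.05 and 0.00. Uqcrc1 had signals of 1211.2 and 1235.0 in control and 1207.9 and 1148.5 in null liver, and Uqcrc2 had 875.6 and 858.0 against 826.8 and 911.7. Uqcrb was the member farthest from 0, at 967.3 and 964.7 in control and 941.4 and 773.7 in null liver (log2 change -0.18 ± 0.12 SE). Its lower mean came mostly from null replicate 8. Uqcrq was at 0.09, with signals of 3614.1 and 3590.8 against 4098.5 and 3577.5, so its groups overlapped. The small subunits Uqcr10 and Uqcr11 were at 0.10 and 0.05, and Uqcrh, the hinge protein, at -0.09. Cyc1, the cytochrome c1 subunit that hands electrons to cytochrome c, was at -0.10 on its bright probe set and 0.34 on a dimmer one that can also bind related transcripts. The Rieske iron-sulfur protein gene Uqcrfs1 was not analysed here.

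Cycs, the somatic cytochrome c that shuttles electrons between complexes III and IV and also takes part in apoptosis, had signals of 78.5 and 79.5 in control liver and 128.7 and 96.8 in null liver. Both null arrays were higher, 1.41-fold in the mean of the log values (log2 change 0.50 ± 0.20 SE, 95% interval 0.03 to 0.97), and the adjusted p was 0.364. The size rested on null replicate 7, and the log2 change was 0.29 without it.

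Complex IV, cytochrome c oxidase, had the lowest median signal of the complexes (331), and 10 of its 14 genes were tested. Its median log2 change was 0.03, with 6 positive and 4 negative values from -0.33 to 0.48, and 0 passed in limma. Cox5b, a subunit facing the matrix, had signals of 717.1 and 759.3 in control and 774.3 and 763.4 in null liver (log2 change 0.06, interval -0.17 to 0.29). Cox6a1, the liver form of subunit VIa, was at 2253.7 and 2197.8 against 2403.3 and 2132.1 (log2 change 0.02), and Cox7a2, the liver form of subunit VIIa, was at 1423.2 and 1302.8 against 1373.7 and 1423.1 (log2 change 0.04). Cox7b, at 705.5 and 882.4 against 981.8 and 775.9, had a log2 change of 0.15 with overlapping groups. The muscle forms of the same subunits were dim and were not tested. Cox6a2 was at 4.3 and 6.4 in control and 29 and 5.0 in null liver, and Cox7a1 at 8.5 and 10.1 against 9.1 and 1.4. Cox8b, another muscle form, was at 51.9 and 60.7 against 39.1 and 53.2 on a probe set that can bind related transcripts, and its log2 change was -0.30 ± 0.25, or -0.08 without null replicate 7 and -0.52 without null replicate 8. Cox8a, the form of subunit VIII found in liver, gave no more than 13.1 on any array, so this probe set does not report a level above background here. Neither did both probe sets of Cox5a, with a highest signal of 13.5.

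Some members of complex IV gave different answers on different probe sets. Cox4i1, the common form of subunit IV, was at 0.12 ± 0.21 on a probe set with signals from 76.6 to 104.6, and at -0.91 ± 0.38 on a plain one with signals of 33.8 and 29.8 in control and 15.4 and 18.5 in null liver. Cox6c was at -0.06 on a probe set with signals from 1455.9 to 1882.2 and at -0.88 ± 0.30 on one with 55.0 and 96.5 against 37.2 and 42.3. The lower values came in both genes from the dimmer probe set, and none of the 4 probe sets passed. The brighter probe sets, which represent both genes in the counts, are of a kind that can also bind related transcripts. So is the dimmer one of Cox6c, but not that of Cox4i1. Cox6b2, named for a testis form, was at 56.3 and 58.9 in control and 85.1 and 75.4 in null liver (log2 change 0.48 ± 0.19 SE, adjusted p = 0.365), and Cox6b1, the somatic form, was at 38.0 and 47.4 against 33.5 and 33.9 (log2 change -0.33 ± 0.27). Both probe sets are of the kind marked _r_at, which can bind related transcripts.

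Of 14 ATP synthase genes 13 were tested, 0 passed in limma, and the 1 gene with an unadjusted p under 0.05 was Atp5pb, which passed the filter through its control arrays only, so nothing is read from that count. The median log2 change was -0.03, with 5 positive and 8 negative values. Atp5pb and Atp5g1, both of which passed the filter through the control group only, are among the negative ones. Atp5a1 and Atp5c1, the alpha and gamma subunits of the catalytic head and its rotor, had log2 changes of 0.01 each, with intervals of -0.17 to 0.19 and -0.20 to 0.21. Atp5a1 had signals of 2158.3 and 2229.1 in control and 2225.7 and 2186.1 in null liver, so the 4 arrays lay together. A second probe set of Atp5c1 was at -0.02. Atp5d and Atp5e, the delta and epsilon subunits of the central stalk, were at 0.02 and 0.05, and Atp5o and Atp5j, of the peripheral stalk, at -0.01 and -0.11. Dimmer tested probe sets of Atp5d were at 0.17 ± 0.14 and 0.23 ± 0.19, higher on both null arrays. The membrane subunits Atp5l, Atp5k and Atp5mpl were at -0.03, 0.18 and -0.15, with a signal as low as 41.5 for Atp5k. A dim second probe set of Atp5l was at -0.49 ± 0.41, lower on both null arrays. The gene of the catalytic beta subunit was not analysed here. Atp5g1 and Atp5g2 encode the c subunit of the membrane ring. Atp5g2 was at 194.9 and 187.9 in control and 174.6 and 139.6 in null liver (log2 change -0.29 ± 0.16), and Atp5g1, near background, was at 23.4 and 24.0 against 10.1 and 20.5 (log2 change -0.72 ± 0.53), which was -0.21 without null replicate 7 and -1.23 without null replicate 8. For Atp5g2 these values were -0.46 and -0.13.

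Atp5pb, subunit b of the peripheral stalk, had the lowest log2 change of the tested members, on a dim probe set that passed the filter only through the control group. Its signals were 31.6 and 40.4 in control and 1.4 and 20.4 in null liver, so null replicate 7 lay below the floor of 7.1. The log2 change of -1.57 ± 0.59 SE (adjusted p = 0.344) depends on that floor and on that array, and it was -0.81 without null replicate 7. Atp5md, a small accessory subunit named here for its spread after its values were seen, had the widest gap between null arrays among the bright members, with 2555.4 and 1474.5 against 1859.1 and 2100.2 in control liver. Its mean log2 change was -0.03, with an interval of -0.58 to 0.53.

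**Figure D3:**
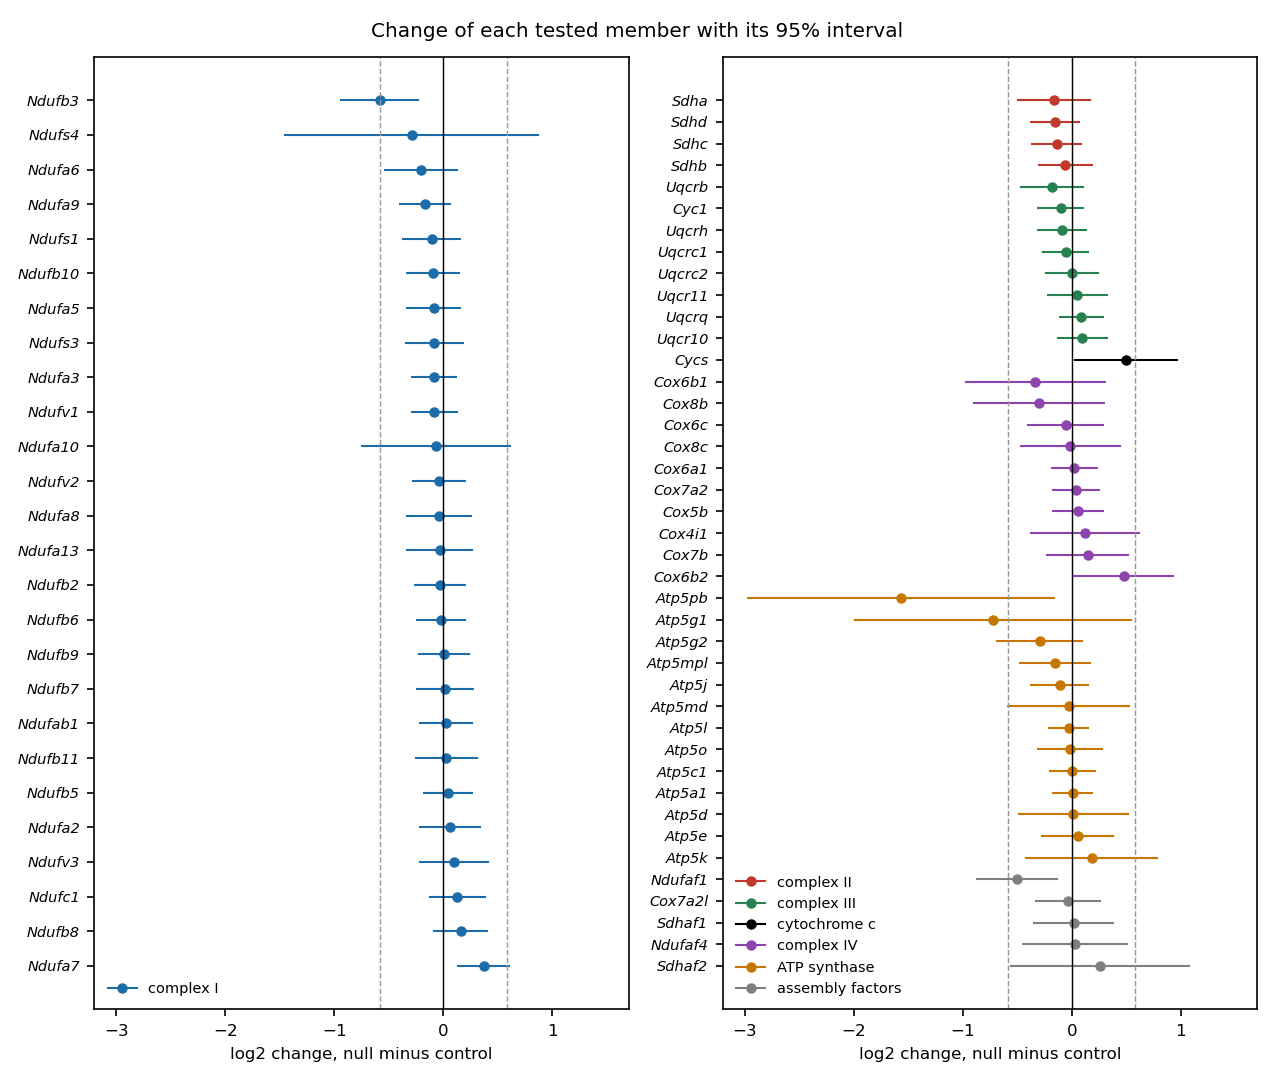
Log2 change between null and control liver (horizontal axes) of each of the 67 tested members, with complex I on the left and the other members on the right, coloured by complex, and lines for the 95% interval. Dashed lines mark a 1.5-fold change, and 52 intervals lie between them, while the widest belong to the dim Atp5pb, Atp5g1 and Ndufs4.

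Of the 5 assembly factors, all tested, 0 passed in limma. At an unadjusted p under 0.05, 0 were higher and 1 was lower, against 6.46% and 6.93% of all genes tested. Ndufaf1, a chaperone for building the membrane arm of complex I, had signals of 138.5 and 145.4 in control liver and 101.6 and 98.4 in null liver. The null arrays lay below the control arrays, by 1.42-fold in the mean of the log values (log2 change -0.51 ± 0.15 SE, adjusted p = 0.254). Ndufaf4 (0.03), Sdhaf1 (0.02) and Cox7a2l, which helps to join complexes III and IV (-0.04), lay near 0 on the log2 scale, and the dim Sdhaf2 was at 0.26 ± 0.34, a value that rested on null replicate 8 (-0.03 without it, and 0.55 without null replicate 7).

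Over the members together, the null arrays differed from each other more than the control arrays did, but not in complex I. The median size of the log2 difference between the arrays of a genotype was 0.14 in null and 0.07 in control liver over the members. Over all genes tested it was 0.22 and 0.20, and in complex I 0.07 and 0.08. Among probe sets with a signal above 400 it was 0.11 and 0.08 for members, near the 0.12 and 0.09 for genes. Null replicate 8 was below null replicate 7 for 50 of 67 members (74.6%), with a median log2 difference of -0.07, while over all genes tested it was below for 46.3% and the median difference was 0.03. Among probe sets with a signal above 400 it was below for 32 of 42 members (76.2%) and 54.3% of genes, with median differences of -0.07 and -0.02. The control pair showed no such lean, with replicate 8 below replicate 7 for 32 of 67 members (47.8%). In 44 of 67 members (65.7%) the change between genotypes was smaller than the gap between the null arrays, against 52.0% of all genes tested. Among the complexes the gap was widest for ATP synthase, where the null arrays differed by -0.18 in the median, and the median change of that complex was -0.20 without null replicate 7, against -0.03 with all arrays. Leaving out null replicate 7, the array with the pancreatic signals, left 0 members past the threshold.

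**Figure D4:**
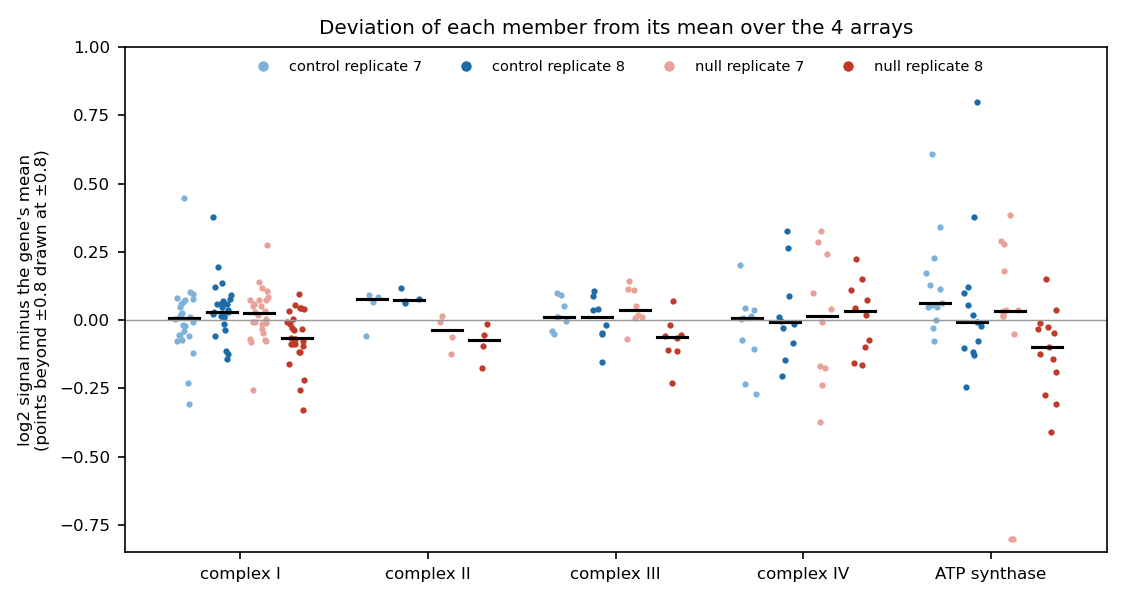
Log2 signal of each tested member minus its mean over the 4 arrays (vertical axis, points past 0.8 in either direction drawn at that limit) by complex (horizontal axis) and array (colour), with the median of each array as a bar. The medians lie between -0.10 and 0.08, and null replicate 8 is the lowest array in complexes I, II and III and in ATP synthase.

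Genes around the respiratory chain were described by lists of other mitochondrial functions, chosen with earlier results of these data known. In limma 0 genes of these lists passed in either direction, against 0.309% higher and 0.0907% lower over all genes tested. At an unadjusted p under 0.05 in limma, 6.46% of all genes tested were higher and 6.93% lower. The lists are short, so nothing is read from their counts at that p. The citric acid cycle and pyruvate dehydrogenase, which supply NADH and succinate, had 16 tested genes, of which 2 were higher and 1 lower at an unadjusted p under 0.05, with a median log2 change of 0.06. Idh2, the mitochondrial NADP-dependent isocitrate dehydrogenase, was at 194.0 and 213.7 in control and 373.9 and 504.8 in null liver, so that the log2 change was 1.09 ± 0.17 with an adjusted p of 0.0696, above 0.05. Cs, citrate synthase and the entry step of the cycle, was at 255.8 and 247.1 against 311.0 and 344.2 (log2 change 0.38 ± 0.13). Both null arrays lay above both control arrays in these 2 genes. Of the 16 tested genes of this list, 9 had no overlap, 6 higher and 3 lower in null liver, against 44.9% of all genes tested. The lower gene at that p was Pdhb, at 490.8 and 614.7 in control and 457.1 and 379.4 in null liver (log2 change -0.40 ± 0.16).

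The defence against superoxide and peroxide in mitochondria had 6 tested genes and a median of 0.07. In limma 2 of them were higher and 0 lower at an unadjusted p under 0.05 (6.46% and 6.93% of all genes tested). Gpx4, which reduces lipid peroxides, was at 257.1 and 285.2 in control and 477.8 and 492.9 in null liver (log2 change 0.84 ± 0.12, adjusted p = 0.0551), and Prdx3, a mitochondrial peroxiredoxin, was at 0.37 ± 0.13. Of 9 tested carriers and channels, 1 was higher and 0 lower at an unadjusted p under 0.05, with a median of 0.16. The one was Slc25a10, the dicarboxylate carrier, at 420.0 and 416.8 against 591.8 and 677.9 (log2 change 0.60 ± 0.12, adjusted p = 0.10), and next by p was Ak3, an adenylate kinase of the matrix, at -0.40 ± 0.21.

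Of 10 tested genes that feed or build ubiquinone outside the complexes, 0 were higher and 1 was lower at an unadjusted p under 0.05 in limma, with a median of -0.18. Over all genes tested the shares at that p were 6.46% higher and 6.93% lower, for this list and those that follow. Sqor, which oxidises sulfide, was at 271.4 and 278.1 in control and 198.0 and 197.8 in null liver (log2 change -0.47 ± 0.13, adjusted p = 0.206). Etfb, a subunit of the flavoprotein that carries electrons from fatty acid oxidation, was at -0.19 ± 0.09. Of 13 tested assembly factors outside the rule, 1 was higher and 2 lower at that p, with a median of -0.08. Lrpprc, which stabilises mitochondrial messenger RNA, was at -0.48 ± 0.17 and Cox17, the copper chaperone of complex IV, at 0.44 ± 0.17. Of 18 tested import and chaperone genes, 0 were higher and 1 lower, with a median of 0.01. Hspd1, the matrix chaperonin, was at -0.38 ± 0.11 and Lonp1, a matrix protease, at -0.32 ± 0.20. Of 59 tested genes of the mitochondrial ribosome, 4 were higher and 0 lower, with a median of 0.03. Mrpl54 was at 1.09 ± 0.34 on a dim probe set and Mrps18a at 0.40 ± 0.14.

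Of 10 tested regulators of respiratory genes and mitochondrial DNA, 0 were higher and 1 was lower at an unadjusted p under 0.05 in limma (6.46% and 6.93% of all genes tested). The median log2 change was -0.22, with 2 positive and 8 negative values, while all genes tested had 2672 positive and 2838 negative values. The list is short, so nothing is read from these signs. Yy1 was at 185.1 and 185.6 in control and 142.1 and 120.1 in null liver (log2 change -0.50 ± 0.16, adjusted p = 0.259). Gabpb1 and Gabpa, the subunits of GABP, were at -0.60 ± 0.37 and -0.31 ± 0.21. Ppargc1a, the coactivator that drives mitochondrial biogenesis, was at or below 14.4 on all arrays, and Tfam, the packaging factor of mitochondrial DNA, at or below 5.9, so these probe sets give no level above background here.

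The liver label was checked against marker genes. All 14 hepatocyte markers on the array were tested, and none was at or below the floor on all arrays. Their summed signal was 56180 and 56270 in control and 54670 and 52270 in null liver. In limma 0 passed as higher and 0 as lower, and 4 were lower at an unadjusted p under 0.05 (6.93% of all genes tested). The 13 Kupffer cell and macrophage markers summed to 2851 and 2819 in control and 3537 and 3859 in null liver, with 1 higher past the threshold (0.309% of all genes tested). The 12 stellate cell and fibroblast markers summed to 1379 and 1457 against 1773 and 2088. The erythroid markers summed to 7632 and 7232 in control and 6117 and 5811 in null liver, and both tested ones, Alas2 (-0.64 ± 0.12) and Hba-a1 (-0.27 ± 0.06), were lower on both null arrays without passing in limma. The part of these cell types in the members' values was not tested. Muscle and brown fat share some of the isoforms above. Muscle markers summed to 306.0 and 278.0 in control and 341.7 and 254.0 in null liver. Their highest sum was on null replicate 7, the array where the muscle form Cox6a2 was at 29, and a link between them was not tested. Brown fat markers summed to 44.9 to 65.4 on the 4 arrays, and Ucp1, which defines brown fat, was at or below 9.0.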

How the data were processed

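Liver RNA was measured on 4 Affymetrix MG_U74Av2 arrays, 2 a group. Each deposited value is a probe set's intensity (linear scale), which the authors obtained with GCOS by scaling an array to its total fluorescence, per the labels. Neither software version nor genome build is stated there. The labels' protocols speak of pooled RNA of 3 animals, but control titles name a single mouse, so an array may hold a pool or an animal, and the number of arrays limits the precision.

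Control probe sets were left out. Signals were floored at 7.1 (the 25th percentile of the 4 arrays pooled), converted to log2 and tested with limma 3.58.1 (R 4.3.3; lmFit and eBayes with an intensity trend) where the mean lay above log2 of 16.8 (the 40th percentile), 7241 probe sets in all, with Benjamini-Hochberg adjustment. Fold changes near the floor are understated. An exact permutation of 2 against 2 arrays cannot go below p = 0.333. The script was tested on simulated data. Symbols came from the platform annotation, and probe sets marked _f_at, _r_at, _s_at, _i_at or _g_at can bind related transcripts, which holds for 38 of 103 member probe sets and for the probe set representing 19 of 67 tested genes. Of 9 genes with several tested probe sets, 5 had values of opposite sign.

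The members, lists and promoter motifs were chosen with earlier results of these data known, and the NRF1 core was shortened by 1 letter after its counts had been seen. Named are core subunits, isoform pairs, members whose probe sets differ in sign, and in each complex the 3 members of smallest p and the 1 of largest log2 change. In each other list the 2 genes of smallest p are named, and in some lists a few more. The 15 alternatives varied the scaling, floor, filter, trend, block, probe sets and arrays. Same-numbered arrays did not deviate together (correlation of deviations from the group means -0.030 over probe sets).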

Additional observations from a re-analysis of the deposited data

How the results depend on the processing

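Of 15 alternatives, 14 gave a test, while the mean over the probe sets of a gene gave values only. In each of the 14, 0 member probe sets passed in limma in either direction among those tested there. Of the 33 named members, 20 had a tested value in all 14, and the others, Atp5pb, Atp5g1 and Cox6b1 among them, dropped out of some. Of those 33, 15 changed sign under at least 1 alternative, all of them uncalled. Ndufb3 lay between -0.74 and -0.43 (smallest adjusted p 0.133), Ndufa7 between 0.28 and 0.46 (0.135), Ndufaf1 between -0.58 and -0.45 (0.187), Cycs between 0.29 and 0.70 (0.285) and the dim Atp5pb between -2.33 and -0.40 (0.259).

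The calls over the whole table, 22 higher and 6 lower probe sets, were less stable, and the cause was not tested. There were 12 lower after quantile normalisation, 15 lower with a filter at the 60th percentile, 1 higher and 0 lower when the 50th percentile was the floor (444 and 464 at an unadjusted p under 0.05), 0 and 0 with no filter on dim probe sets (566 and 642) and 0 and 0 with no intensity trend (407 and 340). With the replicate number as a block there were 37 and 15, of which 0 members. Without 1 array each, the counts were 10 to 13 higher and 0 to 4 lower.

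Median scaling, which moved the median of all genes from -0.010 to -0.082, gave medians of -0.097 for the members, -0.109 for complex I, -0.218 for complex II, -0.098 for complex III and -0.040 for complex IV. The mean over all probe sets of a gene gave 0.027 for complex III and 0.005 for complex IV, and no filter gave 0.049 for complex IV. Leaving out 1 array gave -0.081 to 0.005 for the members, -0.076 to 0.009 for complex I and -0.150 to -0.103 for complex II. It gave -0.061 to -0.021 for complex III, -0.008 to 0.041 for complex IV and -0.196 to 0.008 for ATP synthase. The sign of these small medians is not settled. The median of complex II was negative under every alternative, but it rests on 4 genes and on the same 4 arrays. Subsets of the same arrays cannot settle a sign, and Sdhb was at 0.03 without control replicate 8. The labels give no batch, and with 2 arrays a group the dim members have wide intervals.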
